A study of Ovis aries with 6 samples.

Results

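TYR, ASIP and POMC are 3 genes of the pigment pathway of skin, and their expression in body side skin was compared between 2 sheep breeds, the Aohan fine wool and the small tail Han. They were chosen by name, without a threshold on their signals, but with earlier results of these data known. All array probes that carry a sheep RefSeq mRNA identifier of TYR, ASIP or POMC were taken. This gave 6 probes, 2 per gene, of the 734 probes and 476 genes on the array that such an identifier names. The array held 15008 probes in all, and all 6 were among the 12481 that were tested.

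The skin samples came from 3 Aohan fine wool sheep, a breed with fine wool, and 3 small tail Han sheep, a breed with coarse wool. All animals were 12 months old, and each breed had 1 ram and 2 ewes. Full-thickness body side skin of about 1 cm2 was taken once from each animal and hybridised to 1 Agilent sheep array with 1 colour (Cy3). All sheep of a breed had the same sire, so breed and sire family cannot be told apart, and the labels give neither coat colour nor which animal was the ram.

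In mammalian skin, melanocortin signalling sets the type and amount of melanin. POMC is the precursor that is cut into ACTH and the melanocyte-stimulating hormones, which activate the receptor MC1R on melanocytes, while ASIP (agouti signalling protein), secreted by dermal cells of the follicle, blocks that receptor. TYR (tyrosinase) is the melanosomal enzyme that catalyses the rate-limiting step of melanin synthesis and is transcribed in pigment cells. In white sheep, ASIP is known to lie in a tandem duplication that also holds AHCY and the promoter of ITCH, and a hybridisation probe cannot tell signals of the ASIP copies apart.

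Values are log2 signals relative to the 75th percentile of each array, so that 0 is the signal below which 75% of the probes on that array lie. A change is Aohan minus small tail Han on this scale, SE is its standard error in the limma fit, and a probe is said to pass where its p, adjusted by Benjamini-Hochberg over the 12481 tested probes, was under 0.05. Of these, 1893 (15.2%) passed, with 945 probes (7.57%) higher in the Aohan breed and 948 (7.60%) lower. That percentile stood at a processed intensity of 1103 to 2048 on the Aohan arrays, against 1747 to 2309 for small tail Han. Over 50 probes printed in 5 spots, the median coefficient of variation within an array was 11.2% to 19.6% for Aohan and 7.77% to 8.91% for small tail Han, and no spot was saturated. Each breed had its own scan session, and the session and the breed cannot be told apart.

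POMC was down-regulated in Aohan fine wool sheep at both of its probes, by 2.01-fold and 2.82-fold. ASIP was 1.63-fold and 1.53-fold higher in Aohan fine wool sheep at its probes, and TYR was 1.60-fold lower at the brighter of its probes, but none of these 3 differences passed the test. Thus 2 of the 6 probes passed, both lower, where 7.60% of all tested probes passed as lower. The signals of the breeds did not overlap at 3 of the 6 probes, where 34.2% of all tested probes had this property, and with 6 probes no difference is read from these shares.

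**Figure D1:**
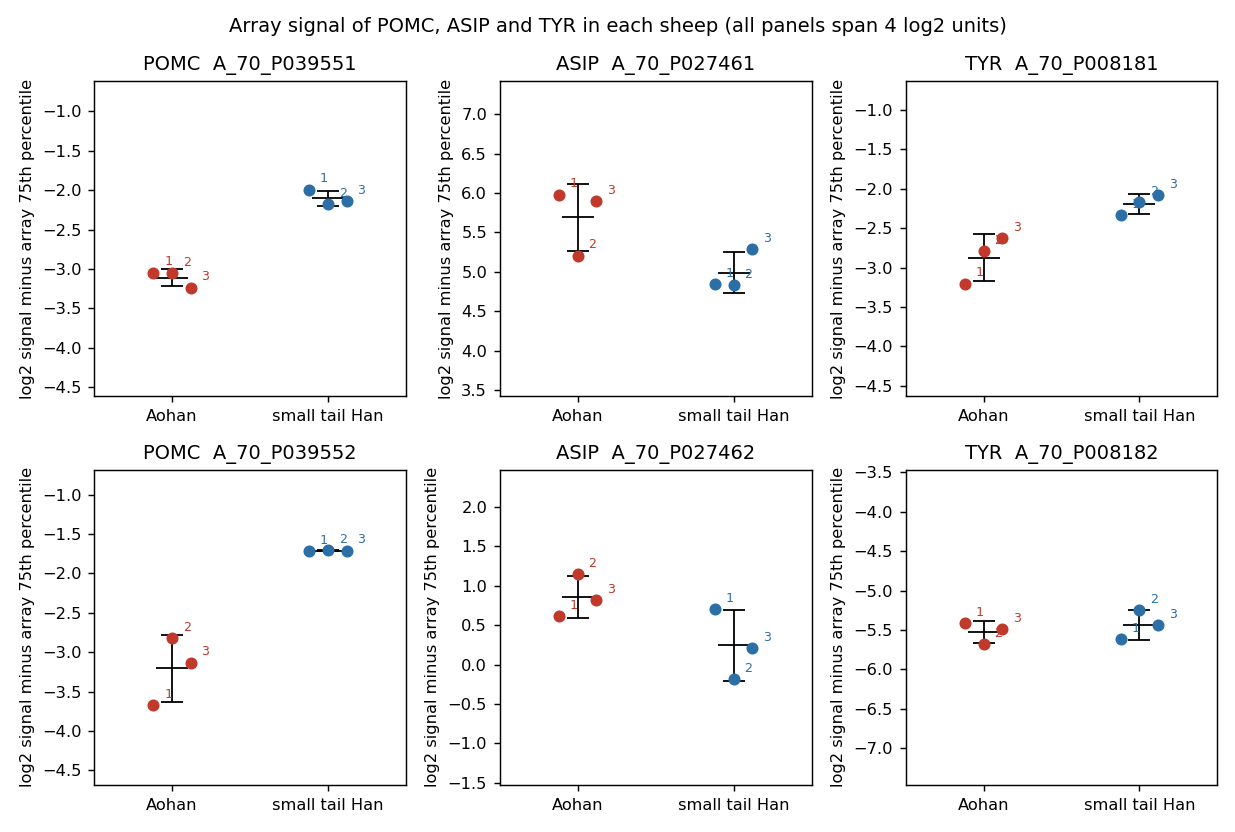
Log2 signal minus the 75th percentile of the array (vertical axis) of each POMC, ASIP and TYR probe in 3 Aohan and 3 small tail Han sheep; points are animals with their replicate number, and bars show the mean ± SD. Both POMC probes and TYR A_70_P008181 had all Aohan animals below all small tail Han animals, whereas the breeds overlapped at both ASIP probes and at TYR A_70_P008182.

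POMC, the hormone precursor, had log2 signals of -3.04, -3.05 and -3.24 at A_70_P039551 in Aohan fine wool sheep, against -1.99, -2.17 and -2.14 in small tail Han sheep. The 3 Aohan animals lay close together and well below every small tail Han animal. The means were -3.11 ± 0.11 in Aohan and -2.10 ± 0.097 in small tail Han sheep (SD, n = 3 each). The change was -1.01 (SE 0.17, 95% interval -1.38 to -0.63, adjusted p = 0.00516 in limma), and 5.48% of the tested probes had a change at least as low.

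At the second POMC probe, A_70_P039552, the log2 signals were -3.67, -2.82 and -3.13 in Aohan fine wool sheep, against -1.72, -1.70 and -1.71 in small tail Han sheep. The groups again did not overlap, and the spread lay almost wholly among the Aohan animals, with an SD of 0.43 in Aohan and 0.0079 in small tail Han sheep. The change was -1.50 (SE 0.23, 95% interval -2.01 to -0.98, adjusted p = 0.00354 in limma), which is 2.82-fold lower with an interval of 1.98-fold to 4.03-fold. Only 2.46% of the tested probes had a change at least as low. An exact two-sided permutation test gave p = 0.1 at each POMC probe, the smallest value that 3 animals against 3 allow.

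The POMC difference was already present in the processed intensities before the 75th percentile was subtracted. These intensities carry a multiplicative surface correction, recorded for all Aohan arrays and, of the small tail Han arrays, for replicate 1 only. A_70_P039551 had 134, 248 and 120 in Aohan fine wool sheep, against 581, 408 and 396 in small tail Han sheep. A_70_P039552 had 86.9, 291 and 129 in Aohan fine wool sheep, against 703, 565 and 534 in small tail Han sheep. In both cases the highest Aohan animal, replicate 2, remained below the lowest small tail Han animal. Raw spot medians, without the surface correction, were 151 to 246 in Aohan fine wool sheep at A_70_P039551, against 456 to 592 in small tail Han sheep. At A_70_P039552 they were 173 to 339 in Aohan fine wool sheep, against 603 to 841 in small tail Han sheep. The 75th percentile was 1103 and 1131 on Aohan replicates 1 and 3, against 1747 to 2309 for small tail Han, so unscaled intensities run lower on these Aohan arrays. Aohan replicate 2, at 2048, lay within the small tail Han range. Both probes were well above background on all 3 arrays of each breed. The 2 probes correlated at r = 0.93 over the 6 animals, but at r = -0.13 once the mean of each breed was subtracted, so that they shared the order of the breeds and not that of the animals within a breed.

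ASIP, the receptor antagonist, had log2 signals of 5.98, 5.20 and 5.89 at A_70_P027461 in Aohan fine wool sheep, against 4.84, 4.83 and 5.29 in small tail Han sheep. Aohan replicate 2 lay below small tail Han replicate 3, so that the breeds overlapped. The change was 0.71 (SE 0.26, 1.63-fold with a 95% interval of 1.08-fold to 2.46-fold, unadjusted p = 0.0240, adjusted p = 0.106 in limma), and the exact permutation test gave p = 0.2. A change at least as high was seen at 9.64% of the tested probes.

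This ASIP probe was very bright. Its change was 0.67 to 0.75 with median scaling, quantile normalization or the series matrix values, and 0.41 with normexp background correction. The normexp values started from the raw spot medians, without the surface correction that the processed intensities carry on all Aohan arrays and on small tail Han replicate 1. The part of this correction in the ASIP change was not tested. Its processed intensities were 69535, 75509 and 67221 in Aohan fine wool sheep, against 66120, 52187 and 68143 in small tail Han sheep. The median intensities of the raw spots were 44971, 55554 and 49030 in Aohan fine wool sheep, against 49642, 52416 and 67046 in small tail Han sheep. Thus the intensities of the breeds overlapped before scaling, and the 75th percentile they were divided by was lowest on Aohan replicates 1 and 3 (1103 and 1131). The spot carried no saturation mark on any array, and whether its signal was compressed at the top of the scanner range was not tested.

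The second ASIP probe, A_70_P027462, had log2 signals of 0.62, 1.15 and 0.82 in Aohan fine wool sheep, against 0.71, -0.18 and 0.21 in small tail Han sheep. Small tail Han replicate 1 lay within the Aohan values, while the other 2 animals of that breed were lower. The change was 0.62 (SE 0.24, 95% interval 0.073 to 1.16, adjusted p = 0.123 in limma), and the exact permutation test gave p = 0.2. The ASIP probes were higher in different animals, with r = 0.36 over the 6 animals and r = -0.44 after the mean of each breed was subtracted. When both probes were averaged for each animal, the ASIP change was 0.66 (SE 0.17) with an adjusted p of 0.0359 in limma. Deviations of opposite sign partly cancel in such an average, and neither probe passed alone.

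TYR had log2 signals of -3.20, -2.79 and -2.63 at A_70_P008181 in Aohan fine wool sheep, against -2.34, -2.17 and -2.08 in small tail Han sheep. Every Aohan animal lay below every small tail Han animal, with a gap between the breeds that was smaller than the range among the Aohan animals. The means were -2.87 ± 0.30 in Aohan and -2.19 ± 0.13 in small tail Han sheep (SD, n = 3 each). The change was -0.68 (SE 0.20, 95% interval -1.13 to -0.23, unadjusted p = 0.00788), and its adjusted p of 0.0511 lay just outside the threshold. The exact permutation test gave p = 0.1. In whole skin, fewer cells of a type and less RNA per cell cannot be told apart.

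The processed intensities of TYR A_70_P008181 were 120, 297 and 183 in Aohan fine wool sheep, against 458, 409 and 414 in small tail Han sheep. The breeds were thus apart before the 75th percentile was subtracted as well, and the probe was well above background on all 6 arrays. Its raw spot medians, without the surface correction, were 219 to 363.5 in Aohan fine wool sheep, against 474 to 579 in small tail Han sheep. Aohan replicates 1 and 3 also had the lowest 75th percentiles, so unscaled intensities run lower on these arrays. The other TYR probe, A_70_P008182, was dim, with log2 signals of -5.42, -5.68 and -5.49 in Aohan fine wool sheep, against -5.62, -5.25 and -5.44 in small tail Han sheep. These values overlapped, and the change was -0.091 (SE 0.29, 95% interval -0.75 to 0.56, adjusted p = 0.871). It was well above background on 2 of 3 arrays in each breed, with raw spot medians of 92 to 106 over a local background of 44 to 49 in Aohan fine wool sheep, against 110 to 140.5 over 51.5 to 62.5 in small tail Han sheep. The interval of this probe includes the change of its brighter partner. Whether the 2 TYR probes differ was not tested, since they were not compared within arrays.

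**Figure D2:**
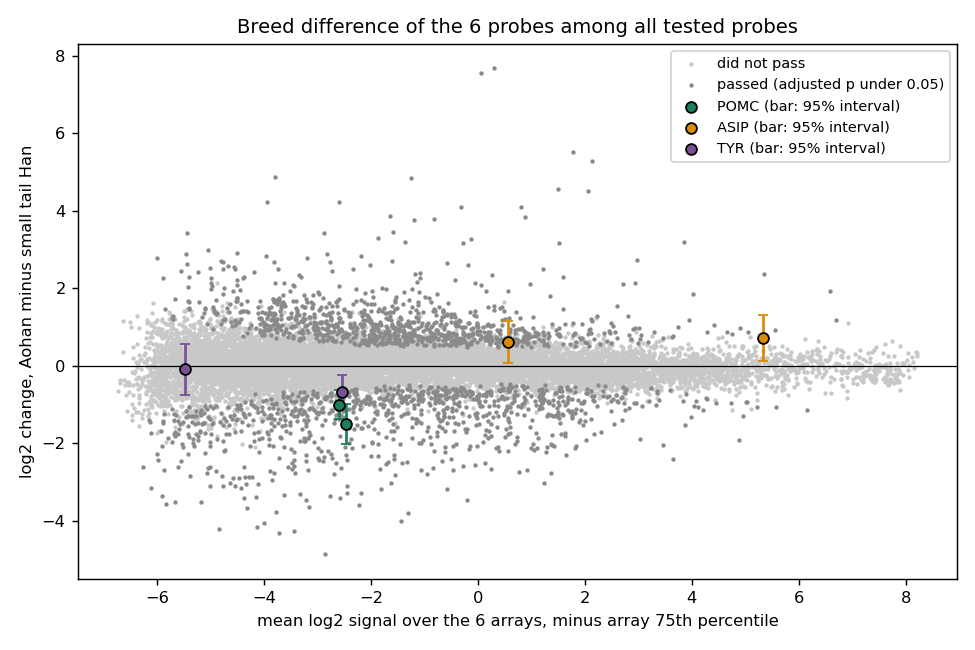
Change of each tested probe (vertical axis, log2, Aohan minus small tail Han) against its log2 signal averaged over all 6 arrays, on the scale relative to the 75th percentile (horizontal axis); grey points are the 12481 tested probes, darker where they passed, and coloured points are the 6 probes of POMC, ASIP and TYR with 95% intervals. Both POMC probes lie among the probes that passed as lower, while the intervals of TYR A_70_P008181 and both ASIP probes exclude 0 without the adjusted p passing.

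Since ASIP acts against the POMC products, the signals of the genes were also set against each other within each array, where the scaling of the array cancels. With the brightest probe of each gene, log2 ASIP over POMC was 9.64, 8.02 and 9.03 in Aohan fine wool sheep, against 6.56, 6.53 and 6.99 in small tail Han sheep. All Aohan animals were above all small tail Han animals, and the difference of the means was 2.20, a 4.61-fold higher ratio in Aohan fine wool sheep. The differences over the 4 pairs of an ASIP and a POMC probe were 1.63 to 2.20, but these pairs share probes, and both POMC probes separated the breeds on their own. These ratios hold different probes, so only their difference between the breeds can be read, not their level. Signal compression at the bright probe ASIP A_70_P027461 would not cancel, and its part in the ratios of ASIP to POMC or TYR was not tested.

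Log2 ASIP over TYR was 9.18, 7.99 and 8.52 in Aohan fine wool sheep, against 7.17, 6.99 and 7.36 in small tail Han sheep. The breeds did not overlap, and the difference was 1.39 (2.62-fold). Log2 TYR over POMC was 0.46, 0.03 and 0.50 in Aohan fine wool sheep, against -0.62, -0.47 and -0.37 in small tail Han sheep. Here too the breeds were apart, with a difference of 0.82 (1.76-fold). Over the 4 probe pairs the differences were 0.71 to 1.39 for ASIP over TYR and 0.33 to 1.40 for TYR over POMC, and 1 pair of each overlapped between the breeds. These pairs share probes too, and TYR A_70_P008181 and both POMC probes separated the breeds on their own. The share of other probe pairs without overlap was not computed, so nothing is read from these counts. The exact two-sided permutation test gave p = 0.1 for each of the 3 ratios, the smallest value possible, and 0.1 after Benjamini-Hochberg adjustment over the 3.

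**Figure D3:**
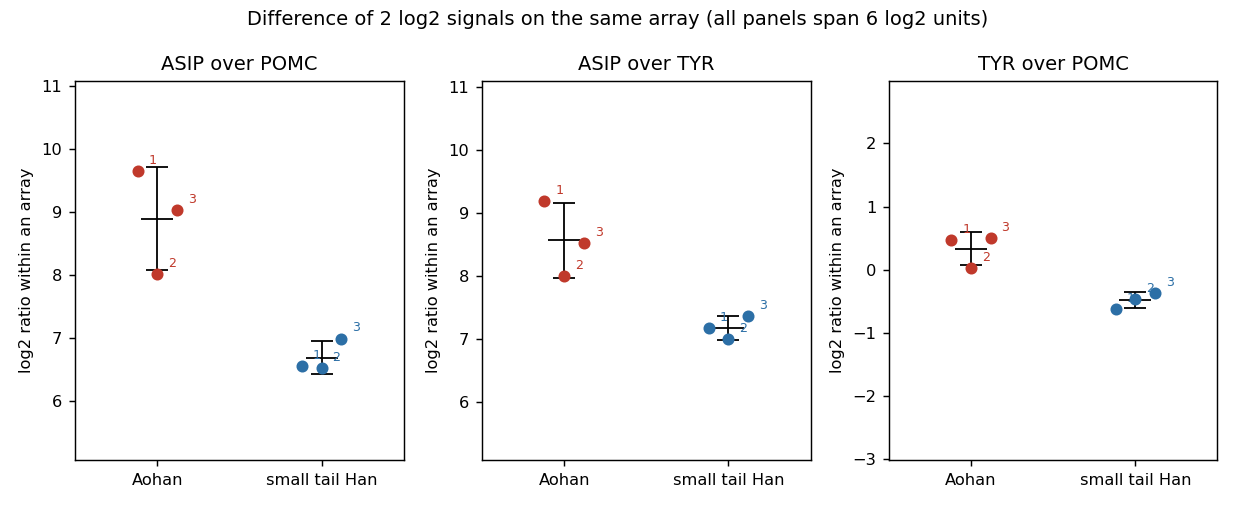
Log2 ratio of the brightest probes of 2 genes on the same array (vertical axis) in 3 Aohan and 3 small tail Han sheep; points are animals with their replicate number and bars show the mean ± SD. ASIP over POMC, ASIP over TYR and TYR over POMC were each higher in all Aohan animals than in all small tail Han animals, by 2.20, 1.39 and 0.82 in log2 units.

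The genes around these members were followed through lists of 71 pigment pathway genes, of which 13 had a probe named by a RefSeq identifier and 12 were tested, 1 probe per gene. Of the 12, TFAP2A passed as higher in Aohan fine wool sheep and POMC as lower, and 10 did not pass. This share is near the 15.2% of all tested probes that passed. The median change of the 12 was -0.034, beside 0.025 over all tested probes. Of the 20 melanosome enzyme and matrix genes only TYR was represented, and none of the 8 melanosome transport genes was, nor AHCY or ITCH.

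Among 24 genes for melanocortin ligands, receptors and processing, 7 were tested, 1 passed as lower, and the median change was -0.13. MC5R, a melanocortin receptor of sebaceous glands in the mouse, had log2 signals of -4.82, -5.18 and -4.69 in Aohan fine wool sheep, against -4.43, -4.46 and -4.15 in small tail Han sheep. The breeds did not overlap, but with a change of -0.55 MC5R missed the threshold (SE 0.25, adjusted p = 0.184). CRHR1, the receptor through which corticotropin-releasing hormone induces POMC, had log2 signals of -4.73, -3.62 and -3.81 in Aohan fine wool sheep, against -3.47, -2.95 and -3.12 in small tail Han sheep. It lay lower in every Aohan animal, with a change of -0.87 that missed the threshold (SE 0.31, adjusted p = 0.0973). CRHBP, which binds that hormone, had values of 0.058 and 0.20 for this change at its probes and did not pass. PRKACA and PRKAR1A, subunits of the cyclic AMP-dependent protein kinase below the receptor, had changes of 0.14, -0.11 and -0.13 at 3 probes, none of which passed (adjusted p 0.634 to 0.740). MC2R, the ACTH receptor, was well above background on 0 of 3 Aohan and 1 of 3 small tail Han arrays and was not tested.

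Among 17 factors of the melanocyte precursor, 4 were tested, 1 passed as higher, and the median change was 0.52. TFAP2A, a transcription factor of neural crest and epidermis, had log2 signals of 1.04, 0.96 and 0.85 at A_70_P039521 in Aohan fine wool sheep, against 0.04, 0.27 and 0.26 in small tail Han sheep. Its other probe had a change of 0.17 that did not pass (adjusted p = 0.510). EDN1, endothelin, a keratinocyte peptide that acts on melanocytes, had log2 signals of -2.01, -1.77 and -2.07 in Aohan fine wool sheep, against -2.13, -2.88 and -2.74 in small tail Han sheep. The breeds were apart by a narrow gap, and EDN1, at a change of 0.63, missed the threshold (SE 0.22, adjusted p = 0.0950). FGF2, a growth factor for melanocytes, passed at the dimmer of its probes, A_70_P039492 (change 0.93, adjusted p = 0.0254), and not at the probe that represents it in the count (change 0.40, adjusted p = 0.258). The paper already lists FGF2 A_70_P039492 and TFAP2A A_70_P039521 as higher in Aohan fine wool sheep on these same arrays. MET, the receptor of hepatocyte growth factor, had a change of -0.14 (adjusted p = 0.716).

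**Figure D4:**
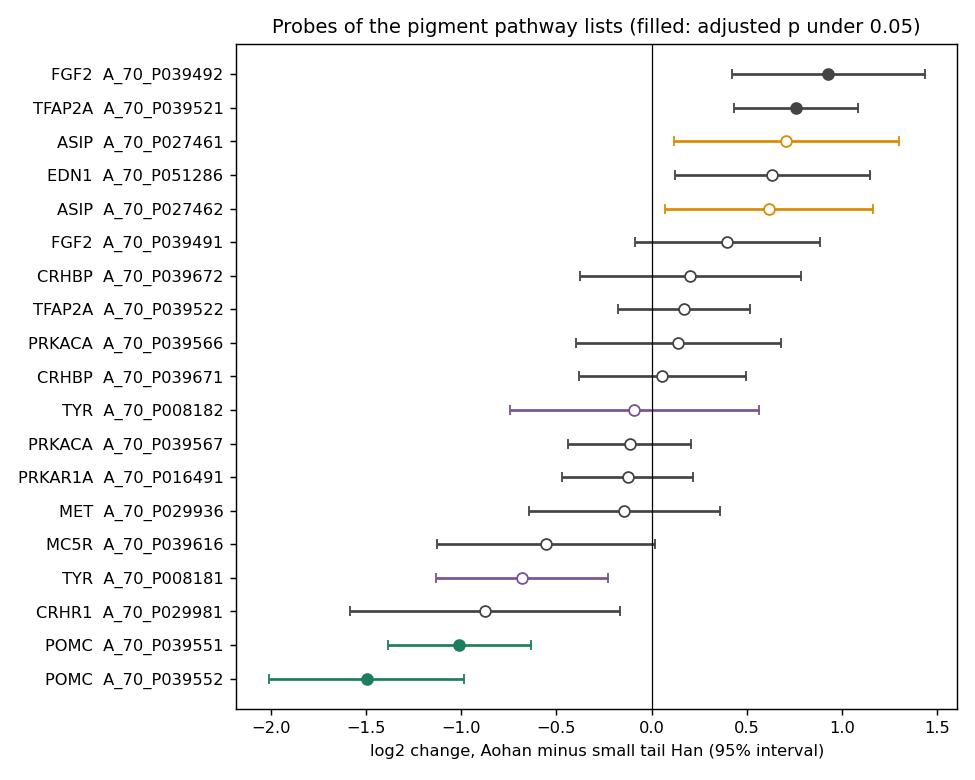
Change of every tested probe of the pigment pathway lists (horizontal axis, log2, Aohan minus small tail Han) with its 95% interval; filled points passed at an adjusted p under 0.05, and POMC, ASIP and TYR are coloured. The 2 POMC probes lie lowest of all and passed, and 1 probe each of FGF2 and TFAP2A passed as higher.

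Markers of the cells that skin holds were read beside these results. Of 9 melanocyte markers only TYR itself had a RefSeq-named probe, so the melanocyte label could not be checked with a second gene. Of 7 genes listed for the wool follicle only LOC443313 was represented, a small proline-rich protein gene of a family that is also expressed in epidermis, so it does not mark the follicle alone. Its signal was 22.4 to 34.0 times the 75th percentile in Aohan fine wool sheep, against 0.493 to 0.990 times in small tail Han sheep. The summed signal of 4 leukocyte markers was 7.03 to 8.43 in Aohan fine wool sheep, against 2.90 to 5.16 in small tail Han sheep, where CD3E and ITGB2 passed as higher at both of their probes, CD3D passed at 1 probe and not at the other (change 0.73, adjusted p = 0.0880), and CD4 was not above background on 3 arrays. The keratinocyte gene SFN (170 to 293 in Aohan, 196 to 247 in small tail Han sheep) and the fibroblast genes DCN, BGN and MMP2 together (116 to 203 in Aohan, 141 to 212 in small tail Han sheep) overlapped between the breeds. The endothelial gene SELE was the only one of 6 endothelial markers with a RefSeq-named probe. It was at 0.0709 to 0.0893 in Aohan and 0.0914 to 0.111 in small tail Han sheep, without overlap, and did not pass (change -0.39, adjusted p = 0.229). VCAM1, another of these 6 markers, has a probe without such an identifier, which the paper lists as higher in Aohan fine wool sheep. The part of LOC443313, SELE and the leukocyte markers in the POMC, ASIP and TYR results was not tested.

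POMC is best known from the pituitary, and 6 of 9 markers of pituitary hormone cells had a RefSeq-named probe. GH, FSHB and POU1F1, the pituitary transcription factor, were not well above background on 3 arrays, whereas LHB, CGA and PRL were at 1 or more probes, none of which passed. The summed signal of these markers, 12.7 to 16.6 in Aohan and 15.0 to 16.9 in small tail Han sheep, overlapped between the breeds and was almost wholly that of 1 probe, LHB A_70_P039602. Its log2 signals were 4.03, 3.63 and 3.92 in Aohan fine wool sheep, against 3.88, 4.05 and 3.93 in small tail Han sheep, while the other LHB probe averaged -2.92 in Aohan and -2.79 in small tail Han sheep.

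The genes whose signals ran most like those of each member were read from 422 genes with a RefSeq name over the 6 animals, as a description. POMC A_70_P039552 was followed most closely by PYGB (r = 0.99), CLOCK (r = 0.99) and PYGM (r = 0.98). PYGB and CLOCK themselves passed as lower in Aohan fine wool sheep, with changes of -0.87 and -1.76. Within the breeds, after their means were subtracted, r with POMC was 0.96, 0.89 and 0.90 for these 3. At this POMC probe the SD was 0.43 in Aohan and 0.0079 in small tail Han sheep. The values within the breeds thus rest almost wholly on the 3 Aohan animals.

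TYR A_70_P008181 ran most like ESR2, MMP2 and GUCA2A (r = 0.98, 0.97 and 0.97, and within the breeds 0.92, 0.87 and 0.87). Of these, ESR2 passed as lower in Aohan fine wool sheep, with a change of -0.68 (adjusted p = 0.0480). ASIP A_70_P027461 ran most like GNRHR, FSHR and SLC66A2 (r = 0.99, 0.99 and 0.98, and within the breeds 0.98, 0.97 and 0.98), none of which passed. All of these values rest on 6 animals, and all probes of an array share its scaling factor. The genes listed for each member were picked for a high r on these same animals, so their r within the breeds is not separate support. Among the members themselves, TYR A_70_P008181 had r = 0.94 with POMC A_70_P039552 and 0.81 with POMC A_70_P039551 over the 6 animals, but 0.73 and -0.73 within the breeds. ASIP A_70_P027461 had r = -0.88 and -0.80 with these POMC probes over the 6 animals, and -0.72 and -0.37 within the breeds. ASIP A_70_P027462 had r = -0.57 and -0.64 with them over the 6 animals, but 0.48 and 0.59 within the breeds. The sign within the breeds thus depended on the probe for both pairs of genes.

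The calls were then followed through the other ways of processing. POMC A_70_P039551 passed in all 10 settings and without each array in turn. POMC A_70_P039552 passed without each array in turn and in 9 of 10 settings, missing only with the test that the study's methods name, run probe by probe (adjusted p = 0.0557). TYR A_70_P008181 passed in 5 of 10 settings, over which its change ranged from -0.77 to -0.43, and without small tail Han replicate 1 (adjusted p = 0.0485). ASIP A_70_P027461 passed with quantile normalization, with the series matrix values and without Aohan replicate 2, and ASIP A_70_P027462 passed with normexp background correction and without small tail Han replicate 1. Every setting gave a lower POMC, a lower TYR A_70_P008181 and a higher ASIP in Aohan fine wool sheep.

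**Figure D5:**
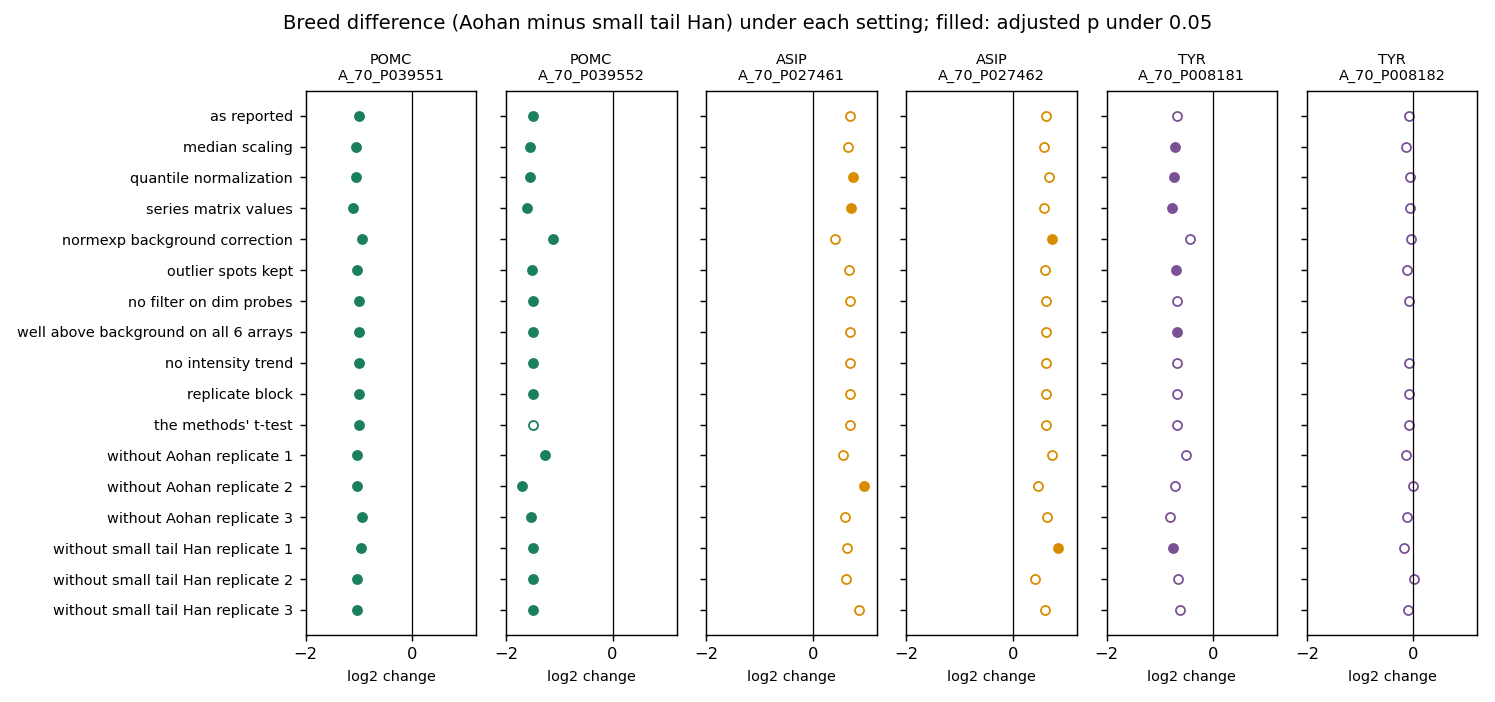
Change of each POMC, ASIP and TYR probe (horizontal axes, log2, Aohan minus small tail Han) under every setting and with each array left out (vertical axis); filled points have an adjusted p under 0.05. The POMC probes are filled throughout but for A_70_P039552 under the methods' test, whereas TYR A_70_P008181 and the ASIP probes are filled in some settings only.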

How the data were processed

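Skin RNA of 3 Aohan and 3 small tail Han sheep was measured on 1 array each. Per the file headers, the scans were extracted with version 10.5.1.1 of the Agilent Feature Extraction software, and the authors deposited background-subtracted Cy3 intensities per spot, not normalized between arrays, with marks for background, saturation and outliers. For 4 of the 6 arrays, but not for replicates 2 and 3 of the small tail Han breed, the headers record a multiplicative surface correction. The authors also deposited a series matrix of normalized log2 values with a median of 8.31 on every array, by a method not given in the sources used here.

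Without control and outlier spots, log2 processed intensities were averaged per probe, and the 75th percentile over the probes of the array was subtracted. A probe was tested if it stood well above background on 3 or more arrays and had 2 or more values in each breed. The test was a two-sided limma 3.58.1 fit in R 4.3.3 over all 6 arrays without covariates, using moderated variances that follow an intensity trend, and Benjamini-Hochberg adjustment at 0.05. The fit was tested on simulated data. Single values were also compared by exact permutation tests, which cannot go below p = 0.1, and the number of arrays limits the precision. Genes were named through RefSeq identifiers, which matched 734 of 758 probes that carry one to the sheep assembly ARS-UI_Ramb_v3.0. A gene is represented by its brightest tested probe. Named are all probes of the 3 genes, list genes that passed with up to 4 more per list by smallest p, and the 3 RefSeq-named genes most correlated with each member. PRKACA, CRHBP and MC2R were added to complete the melanocortin list, and marker genes are named beside the results. The members and lists were chosen with earlier results of these data known.

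The alternatives were quantile normalization, median scaling, normexp with offset 50 (on median spot signals), the series matrix values, no filter and a filter on all 6 arrays, outlier spots kept, the methods' t-test, a replicate block, no intensity trend, the mean of the probes of a gene, and leaving out each array. Python 3.11.15 with pandas 2.3.3, scipy 1.17.1 and matplotlib 3.10.9 was used.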

Additional observations from a re-analysis of the deposited data

How the results depend on the processing

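With 3 animals per breed, 1 scan session per breed and 1 sire per breed, the arrays limit each call, and signals as dim as that of TYR A_70_P008182 bound its change only loosely. The change of TYR A_70_P008181 passed with median scaling (-0.72, adjusted p = 0.0425), outlier spots kept (-0.70, 0.0466), quantile normalization (-0.73, 0.0379), the series matrix values (-0.77, 0.0371) and the filter on all 6 arrays (-0.68, 0.0469), and it did not pass with normexp (-0.43, 0.237). Leaving out 1 array gave -0.80 to -0.51, passing without small tail Han replicate 1. TYR A_70_P008182 ranged from -0.18 to 0.0023, turning sign without small tail Han replicate 2. ASIP A_70_P027461 passed with quantile normalization (0.75, 0.0114) and the series matrix values (0.71, 0.0132), was 0.41 (0.404) with normexp, and ranged from 0.56 to 0.95 with 1 array left out, passing without Aohan replicate 2 (0.0223). ASIP A_70_P027462 passed with normexp (0.73, 0.00557) and ranged from 0.40 to 0.85, passing without small tail Han replicate 1 (0.0273). The mean of the probes gave ASIP 0.66 (0.0359), TYR -0.39 (0.262) and POMC -1.25 (0.00231). POMC A_70_P039552 kept -1.50 but had an adjusted p of 0.0557 with the methods' t-test, and without 1 array the POMC changes were -1.04 to -0.95 and -1.69 to -1.27. PRKACA ranged from -0.060 to 0.35, with a negative sign without Aohan replicate 1 or small tail Han replicate 1 (-0.025), and MET from -0.29 to 0.068, with a positive sign without Aohan replicate 2.

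The methods' t-test called 3234 probes at an unadjusted p under 0.05 and 712 after adjustment (321 higher, 391 lower), against 1893 with limma. Leaving out 1 array gave 788 to 2248 probes, 347 to 1230 higher and 441 to 1018 lower, with 1058 when Aohan replicate 3 was left out, and, of the small tail Han arrays, 788 for replicate 2 and 943 for replicate 3. The pathway lists had 2 higher genes with quantile normalization or the series matrix values and 1 to 2 with an array left out. They had 2 lower genes with median scaling, outlier spots kept, quantile normalization, the series matrix values or the filter on all 6 arrays, 0 with the methods' t-test, and 1 to 2 with an array left out. The labels give no pairing of same-numbered arrays. Deviations from the breed means had r = -0.22, -0.37 and 0.28 between same-numbered arrays over 12410 probes. Between other arrays of the 2 breeds r was -0.30 to 0.47, so these values cannot settle whether the numbers pair arrays. With the replicate block 1234 probes passed (565 higher), and both POMC probes still passed (adjusted p = 0.0243 and 0.00552 in limma). The cause of these shifts was not tested.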

Other observations

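AGRP, the agouti-related protein that blocks melanocortin receptors in the hypothalamus, belongs to the list of 24 melanocortin genes, but has no RefSeq-named probe. It is named only by the annotation that the study gives for probes it had called changed on these same arrays. It is thus not among the list genes tested above, and its direction is not independent evidence. It was chosen after its values were seen. At A_70_P002721 its log2 signals were -5.03, -5.23 and -5.10 in Aohan fine wool sheep, against -6.40, -7.32 and -6.06 in small tail Han sheep. The change was 1.47 (SE 0.39, adjusted p = 0.0379 in limma), but the probe was well above background on 2 of 3 Aohan and 1 of 3 small tail Han arrays. With normexp the change was 0.32 (adjusted p = 0.822), and the call was lost in 5 of 6 fits with 1 array left out. At A_70_P002722 the log2 signals were -5.19, -4.98 and -5.04 in Aohan fine wool sheep, against -6.05, -6.10 and -5.75 in small tail Han sheep, and this probe missed the threshold with a change of 0.90 (SE 0.29, adjusted p = 0.0703).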
